A study of Mus musculus with 23 samples.

Results

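The 33 genes described here make, move and store cholesterol in mouse cells. They were chosen by name, as the rows of the deposited gene table whose identifiers map to the listed symbols, and they are 33 of 35825 genes. By role they are 15 enzymes of sterol synthesis, 4 regulators of that synthesis (Srebf1, Srebf2, Insig1, Scap), 4 efflux genes (Abca1, Abcg1, Nr1h2, Nr1h3), 3 genes of lysosomal cholesterol handling (Npc1, Npc2, Lipa), 5 genes of esterification, oxidation and droplets (Soat1, Nceh1, Ch25h, Plin2, Plin3) and 2 lipid carriers (Apoc1, Fabp5). All 33 passed the filter on low values.

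GFP+ microglia were sorted from mouse retinas and sequenced as 23 bulk RNA libraries. The WT mice were CX3CR1-GFP, with GFP placed in the Cx3cr1 gene (Cx3cr1tm1Litt). The KO mice were Spp1KO/CX3CR1-GFP, which also carried a global Spp1 knockout (Spp1tm1Blh, homozygous). Every group is thus labelled with the GFP allele. The paper describes crosses that began with mice heterozygous for it, and the sample titles do not give its copy number. Retinas were naïve, with no treatment in the labels (4 WT and 4 KO libraries), or were taken 4 weeks after microbeads had been injected into the anterior chamber to raise the intraocular pressure (IOP, 4 and 4 libraries), or on day 7 after optic nerve crush (ONC, 3 WT and 4 KO libraries). The sample titles call the naïve libraries control and their treatment is given as none, while the study's methods describe saline injection of control mice for the microbead model, so whether any of these eyes had been injected was not settled by the sources used here. Ages were not given in the sources used here, and both sexes were used. The paper's sorting methods state that retinas of several mice of a genotype and condition were pooled. A figure legend of the paper, however, gives the sample size of microglial expression data of both genotypes in mice. Whether each library came from a pool or from a single mouse was therefore not settled by the sources used here. The labels do not say whether replicates came from separate pools. The p-values measure the spread between these libraries, which may be technical if they share a pool.

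Cholesterol is built from acetyl-CoA through mevalonate, the isoprenoids, squalene and lanosterol. When sterols in the endoplasmic reticulum are low, Scap carries the precursors of the SREBP transcription factors (Srebf1, Srebf2) to the Golgi, where they are cut and released to switch on synthesis genes, and Insig1 holds them back when sterols are plentiful. Cholesterol taken up with debris or lipoproteins leaves the lysosome through Npc2 and Npc1 after Lipa has split its esters, and it is then re-esterified by Soat1 for droplets coated by perilipins or exported by Abca1 and Abcg1, which liver X receptors (Nr1h2, Nr1h3) switch on when oxysterols such as the product of Ch25h accumulate. Microglia meet cholesterol in quantity when they engulf dying neurons and myelin.

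Each library held 22180480 to 30296094 reads on genes, and a gene listed at 0 could still hold up to 3 reads, worth 2.41 to 4.03 normalized counts (counting error alone). Microglial markers were present in every library (12 of 12 listed genes averaged at least 10 in each group), and so were markers of rod photoreceptors (12 of 12). Microglial marker transcripts summed to 2.72 to 3.41% of a library in WT naïve, 1.81 to 3.03% in WT IOP, 2.45 to 3.54% in WT ONC, 2.87 to 3.63% in KO IOP and 2.83 to 3.39% in KO ONC. In KO naïve they made up 1.18, 1.40, 3.48 and 1.54% of replicates 1 to 4, and rod transcripts 3.15, 3.35, 1.19 and 3.74%, so replicate 3 stood apart from the others. Rod transcripts made up 1.48 to 1.81% in WT naïve, 1.63 to 2.78% in WT IOP, 0.525, 1.92 and 0.618% in WT ONC, 0.885 to 1.56% in KO IOP and 0.730 to 1.07% in KO ONC. Lens transcripts reached 0.873 and 0.948% in WT IOP replicates 1 and 4, against at most 0.184% in any other library. Spp1 itself ranged from 6.78 to 350 normalized counts in naïve, 9.28 to 811 in IOP and 15 to 6811 in ONC libraries labelled Spp1KO, against 334 to 1518, 1343 to 2772 and 14557 to 22906 in the matching WT libraries. The labelled knockouts were lower on average but overlapped the WT range in naïve retinas, and they differed widely within each group. KO ONC replicates 1, 2 and 4 read 4750, 6811 and 6226, above every WT naïve and WT IOP library. Replicate 3 was the lowest of that group. KO IOP replicates 2 and 4 read 811 and 761, and replicates 1 and 3 read 25.5 and 9.28. KO naïve replicates 1 to 4 read 350, 53.1, 6.78 and 81.6, so replicate 3 was the lowest of all libraries. The part of these Spp1 differences in the KO results was not tested. A gene total does not tell which exons the reads came from, so KO here means the libraries labelled Spp1KO.

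**Figure D1:**
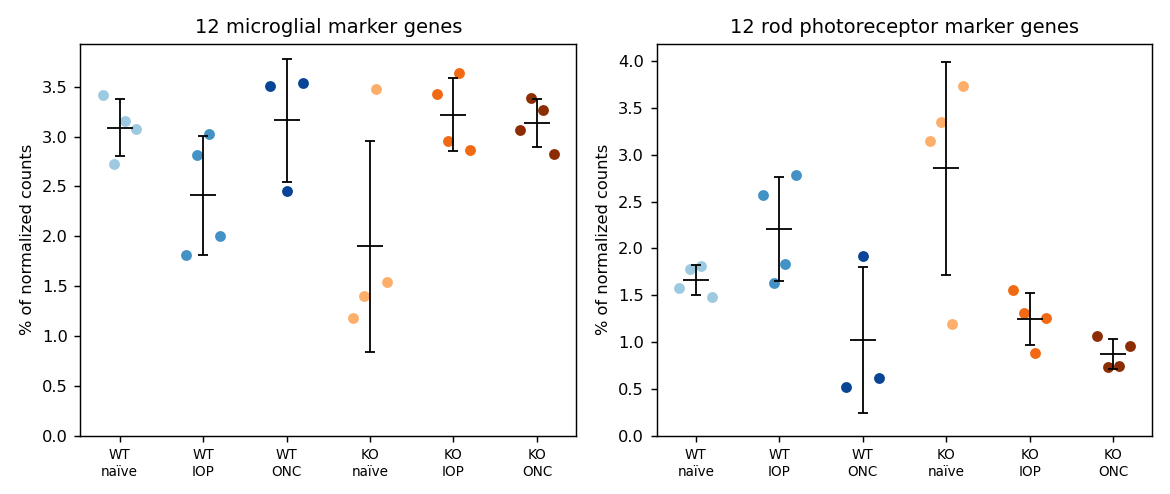
Summed share of the normalized counts (%, y axis) taken by 12 microglial marker genes (left) and 12 rod photoreceptor marker genes (right), with 1 point per library (replicate 1 leftmost in each group), a bar for the mean and whiskers for the SD. KO naïve replicates 1, 2 and 4 hold 1.18 to 1.54% microglial and 3.15 to 3.74% rod transcripts, while replicate 3 holds 3.48 and 1.19%.

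Levels between genes were compared as mean normalized counts per kilobase of exons. In WT naïve microglia Npc2, the soluble lysosomal carrier of cholesterol, stood highest at 2102 per kilobase. Hmgcs1, which joins acetyl units to HMG-CoA at the start of the pathway, led the synthesis enzymes at 1223, followed by the isomerase Idi1 at 797, and Lss (111) and Hsd17b7 (100.3) were the lowest of them. Of the liver X receptors, Nr1h2 was measured at 399 per kilobase and Nr1h3 at 14.4, the lowest level of the 33 genes in that group.

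The promoters of the synthesis enzymes are shown because 11 of the 15 in WT and 9 in KO were called lower after ONC. RefSeq promoter windows on GRCm38.p6, running from 250 bases before to 50 after the annotated start, were found for 26 of the 33 genes and for 12 of the 15 synthesis enzymes. Fdps, Fdft1, Sqle, Abcg1, Npc1, Apoc1 and Fabp5 had none. Both strands were searched for the sterol regulatory element TCACNCCAC, the letters SREBPs are known to bind, for the CCAAT box, bound by NF-Y, and for the liver X receptor direct repeat, 2 copies of AGGTCA with 4 bases between them. In the lines below capitals mark TCACNCCAC or CCAAT on either strand (ATTGG is CCAAT read from the other strand), and the matches did not overlap. Hmgcs1 (chr13:119690101-119690400, plus strand) is shown whole, since it is the synthesis enzyme with a sterol regulatory element match. Idi1 (chr13:8885506-8885625, plus), Lss (chr10:76531505-76531624, plus), Cyp51 (chr5:4104678-4104797, minus) and Sc5d (chr9:42264281-42264400, minus) are shown from 100 bases before to 20 after the start and were chosen after their values and matches had been seen.
Hmgcs1: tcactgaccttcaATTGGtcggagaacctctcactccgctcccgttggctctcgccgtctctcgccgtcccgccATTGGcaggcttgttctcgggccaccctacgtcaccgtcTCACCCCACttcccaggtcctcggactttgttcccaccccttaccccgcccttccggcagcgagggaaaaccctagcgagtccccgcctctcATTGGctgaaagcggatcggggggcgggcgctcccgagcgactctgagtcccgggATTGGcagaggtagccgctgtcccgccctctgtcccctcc
Idi1: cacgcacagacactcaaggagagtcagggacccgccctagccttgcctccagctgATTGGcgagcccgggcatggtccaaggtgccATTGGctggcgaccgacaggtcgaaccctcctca
Lss: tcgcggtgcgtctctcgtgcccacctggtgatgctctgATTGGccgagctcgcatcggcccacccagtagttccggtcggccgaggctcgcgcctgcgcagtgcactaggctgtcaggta
Cyp51: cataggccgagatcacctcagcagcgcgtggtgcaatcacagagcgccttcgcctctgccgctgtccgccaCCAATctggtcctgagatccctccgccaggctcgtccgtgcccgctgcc
Sc5d: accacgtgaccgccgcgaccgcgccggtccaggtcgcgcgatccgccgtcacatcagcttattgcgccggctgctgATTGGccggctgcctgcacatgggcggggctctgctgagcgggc
The sterol regulatory element matched in Hmgcs1 at -137 to -129 (TCACCCCAC) and in no other of the 26 genes, against 1.44% of the 27025 genes with a window. A CCAAT box was present in 12 of the 12 synthesis enzymes and in 9 of the 14 other genes with a window, against 41.1% of all genes. The 12 include Pmvk, Nsdhl and Dhcr7, which were not called in any comparison. The liver X receptor repeat matched in 0 of the 26 genes and in 4 of all 27025. A match is a description of letters in these windows, and sites further away were not searched.

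After ONC, synthesis enzymes and Srebf2 were lower in the microglia of both genotypes. Of the genes of efflux, lysosomal handling, esterification, oxidation, droplets and carriers, Abcg1, Npc2, Soat1 and Ch25h were called higher in both. Further genes of these roles were called higher in KO alone. By limma, 0 of the 33 genes were called when the changes after ONC were compared between genotypes. KO against WT after ONC also gave 0 calls, so a call in KO alone is not a shown difference between genotypes. In WT, 12 of the 33 genes were called lower and 4 higher (limma, adjusted p below 0.05 with a log2 fold change beyond 0.58 in size), where 10.5% of all 17102 genes tested were called lower and 7.55% higher. In KO, 10 were called lower and 9 higher, where 11.0% of all genes were called lower and 12.7% higher. Of the genes called lower, 9 were shared, which is 9 of the 12 in WT and 9 of the 10 in KO, and all 4 higher in WT were among the 9 higher in KO. These 2 comparisons have no library in common, but limma estimated the spread of each gene from all 23 libraries, so they are not independent. The share of all genes called in both is not given here.

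**Figure D2:**
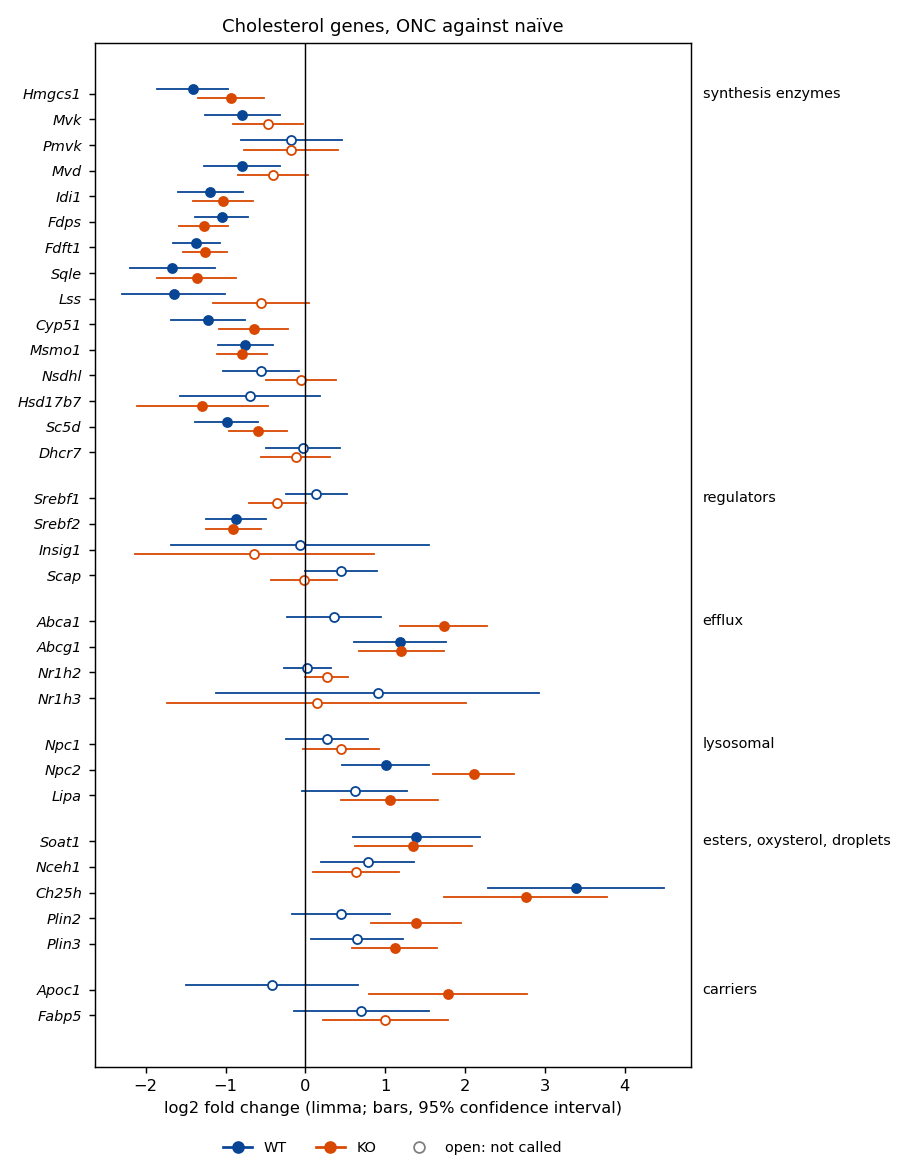
Log2 fold change of ONC against naïve (x axis) for the 33 genes, grouped by role, in WT (blue) and KO (orange), with bars for the 95% confidence interval of limma and filled points for called genes. All 15 synthesis enzymes lie below 0 in both genotypes, and Ch25h lies furthest to the right at 3.39 in WT and 2.76 in KO.

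Of the 15 synthesis enzymes, 11 were called lower in WT after ONC and 9 in KO, and 0 were called higher in either. The median log2 fold change of the 15 was -0.99 in WT and -0.65 in KO, beside medians over all genes tested of -0.10 and -0.12. With every library rescaled to its upper quartile these medians were -1.10 and -0.73 beside -0.21 and -0.20, and with quantile normalization -1.04 and -0.83 beside 0.00 and -0.02. The values below are normalized counts, the order is that of the replicate numbers, and each change is a log2 fold change with its SE.

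Hmgcs1 (chromosome 13, 119690379 to 119708260) measured 5292, 5805, 5654 and 5722 in WT naïve and 1628, 2173 and 2659 in WT ONC. KO libraries held 4761, 3469, 5710 and 4210 when naïve and 2238, 2481, 2561 and 2113 after ONC. In each genotype all ONC libraries lay below all naïve libraries, and Hmgcs1 fell by 1.41 ± 0.21 in WT (limma, adjusted p = 0.000104) and by 0.93 ± 0.20 in KO (limma, adjusted p = 0.00178).

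Next along the route, Idi1, which isomerizes the isoprenoid building block, read 2723, 2901, 2650 and 2894 in WT naïve and 1197, 1154 and 1315 in WT ONC. Its KO values were 2556, 2164, 2646 and 2460 in naïve and 1390, 1435, 1215 and 854 in ONC libraries. The groups did not overlap, with a fall by 1.19 ± 0.20 in WT and by 1.03 ± 0.18 in KO (limma, adjusted p = 0.000236 and 0.000411). Fdps, which condenses these units to farnesyl diphosphate, was among the 6 largest falls in KO, from 2724, 3277, 2969 and 2975 to 1086, 1549, 1167 and 1166, a fall by 1.28 ± 0.15 (limma, adjusted p = 6.91e-06). In WT it fell by 1.05 ± 0.16, with naïve libraries at 2278 to 2648 and ONC libraries at 1111 to 1274 (limma, adjusted p = 0.000104). Neither gene overlapped between naïve and ONC libraries in either genotype.

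Fdft1, squalene synthase, makes the first committed sterol precursor. It read 2286, 3067, 2455 and 2770 in WT naïve against 1084, 991 and 979 in WT ONC. In KO it read 3142, 3070, 2933 and 3258 against 1355, 1089, 1397 and 1363. These groups were far apart, and Fdft1 fell by 1.37 ± 0.14 in WT and by 1.26 ± 0.13 in KO, the lowest adjusted p of the 33 genes in each (limma, 3.49e-06 and 2.83e-06). Sqle (chromosome 15, 59315077 to 59331192), squalene epoxidase, showed the largest fall of the 33 genes in both genotypes. Its values were 1891, 2717, 2143 and 2346 in WT naïve and 411, 868 and 1005 in WT ONC, a fall by 1.66 ± 0.26 or 3.17-fold (limma, adjusted p = 0.000117). In KO they were 2823, 2269, 2733 and 2947 and then 1283, 963, 931 and 1028, a fall by 1.36 ± 0.24 or 2.57-fold (limma, adjusted p = 0.00035). WT ONC replicate 1 was the lowest library for Sqle.

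Lss, which folds the squalene epoxide into lanosterol, was called in WT and not in KO. In WT it went from 1233, 1312, 1106 and 1126 to 217, 434 and 576, a fall by 1.65 ± 0.31 (limma, adjusted p = 0.0009). In KO it read 1229, 1388, 1037 and 1457 when naïve and 1622, 540, 621 and 1021 after ONC, a log2 fold change of -0.55 ± 0.29 (limma, adjusted p = 0.168). KO ONC replicate 1 lay above all KO naïve libraries and the other 3 below them. The difference between the genotypes' changes was 1.10 ± 0.43 for Lss and did not pass the test (limma, adjusted p = 0.291).

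Cyp51, the lanosterol demethylase, read 2588, 2600, 2023 and 2352 in WT naïve and 768, 1306 and 1063 in WT ONC, a fall by 1.22 ± 0.22 (limma, adjusted p = 0.000634). In KO it fell by 0.65 ± 0.21, from 2160 to 2625 down to 1309 to 1678 (limma, adjusted p = 0.0252), and the groups did not overlap in either genotype. Hsd17b7, a ketoreductase of the later steps, was called in KO and not in WT. It read 386, 403, 525 and 429 in KO naïve and 375, 85.9, 205 and 146 in KO ONC, a fall by 1.29 ± 0.39 (limma, adjusted p = 0.02), and KO ONC replicate 1 lay just under the lowest naïve library. Its change in WT was -0.69 ± 0.42 (limma, adjusted p = 0.258), with overlapping groups. Without KO ONC replicate 2 the KO change was -0.95 and no longer called (limma, adjusted p = 0.096).

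The remaining calls in synthesis were smaller. Msmo1, the sterol oxidase that follows Cyp51, fell by 0.75 ± 0.16 in WT and by 0.79 ± 0.15 in KO (limma, adjusted p = 0.00303 and 0.000795). Sc5d, the lathosterol desaturase, fell by 0.99 ± 0.19 in WT and by 0.59 ± 0.18 in KO (limma, adjusted p = 0.00103 and 0.0168). Mvk and Mvd, a kinase and a decarboxylase of the mevalonate steps, were called in WT, falling by 0.79 ± 0.23 and 0.80 ± 0.23 (limma, adjusted p = 0.0186 for each), while their changes in KO were -0.47 ± 0.21 and -0.41 ± 0.21. The groups behind these 6 calls did not overlap. Several of them depended on single libraries. Mvk was lost without WT naïve replicate 2 (-0.72) or WT ONC replicate 3 (-0.69), and Mvd without WT naïve replicate 2 or 4 (-0.73 each) or WT ONC replicate 1 (-0.71) or 3 (-0.77). In KO, Cyp51 was lost without naïve replicate 2 or 4 (-0.66 and -0.65) or ONC replicate 2, 3 or 4 (-0.66, -0.65 and -0.58), and Sc5d without naïve replicate 1 or 3 (-0.56 and -0.55) or ONC replicate 3 or 4 (-0.56 and -0.51). Pmvk, Nsdhl and Dhcr7, a kinase, a decarboxylating dehydrogenase and the final reductase, were not called in any comparison. In naïve libraries of both genotypes Pmvk lay at 538 to 875, Nsdhl at 520 to 848 and Dhcr7 at 840 to 1170 normalized counts, and their log2 fold changes after ONC lay between -0.56 (Nsdhl in WT) and -0.03 (Dhcr7 in WT).

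Of the 4 regulators, Srebf2, whose product drives the synthesis genes, was called lower in both genotypes. It measured 3742 to 4657 in WT naïve and 1668, 2829 and 2781 in WT ONC, and 5126 to 6061 in KO naïve and 2814 to 3277 in KO ONC. No ONC library reached a naïve library of its genotype, and Srebf2 fell by 0.87 ± 0.18 in WT and by 0.90 ± 0.17 in KO (limma, adjusted p = 0.00199 and 0.000574). Srebf1, whose product mainly serves fatty acid synthesis, changed by 0.14 ± 0.18 in WT and -0.35 ± 0.17 in KO. Scap changed by 0.45 ± 0.22 and -0.01 ± 0.20. Insig1 spread too widely for its direction to be read, from 257 to 2943 among WT naïve libraries and from 459 to 3461 among KO naïve libraries, and its changes were -0.07 ± 0.78 and -0.64 ± 0.72.

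**Figure D3:**
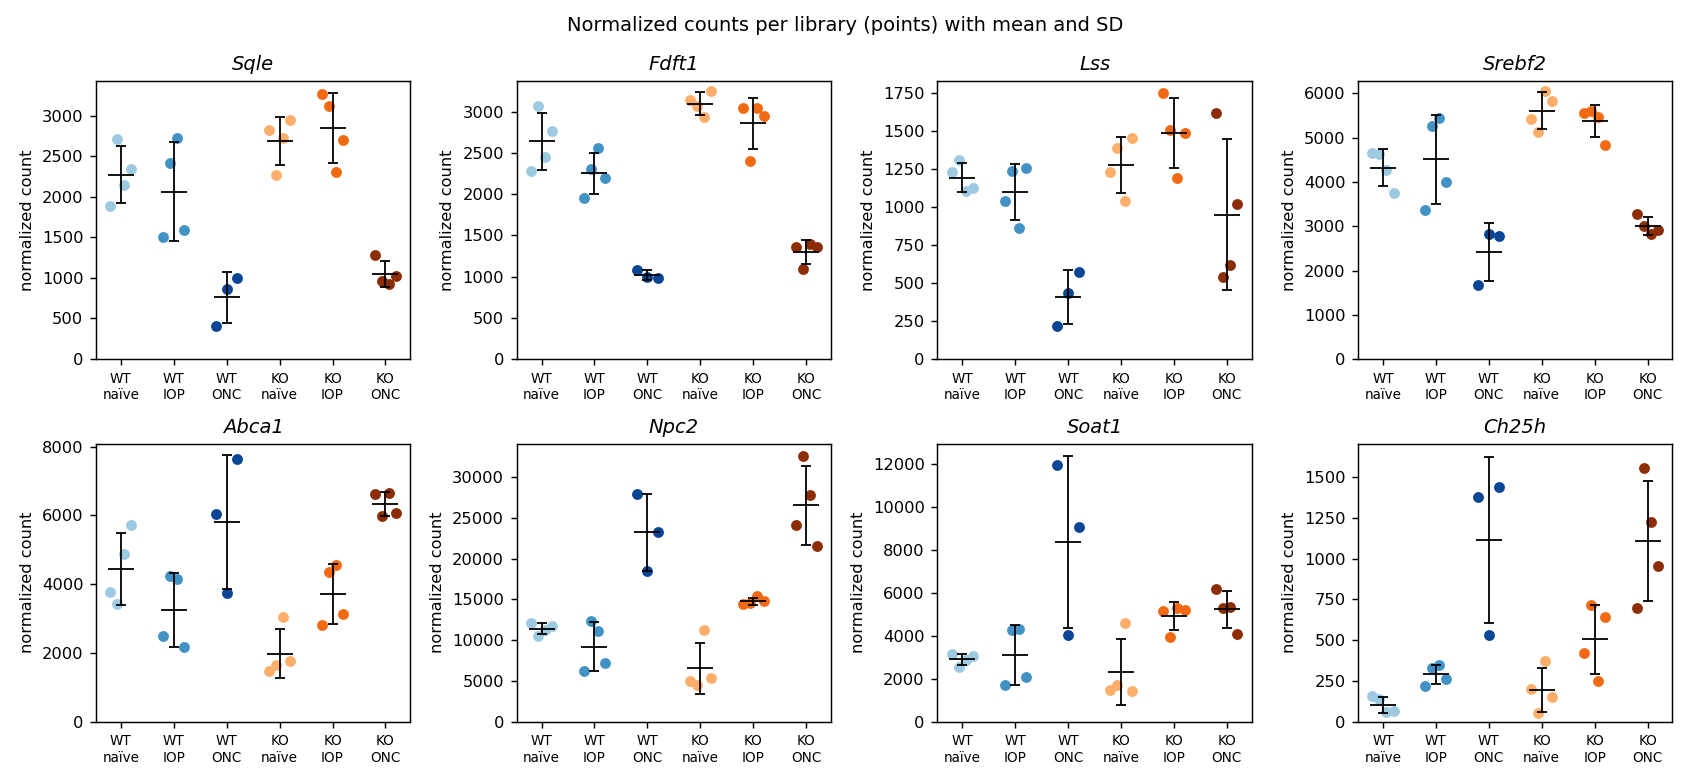
Normalized counts (y axis, from 0) of 8 genes in each library (points, replicate 1 leftmost), with the group mean and SD. The 3 WT ONC and 4 KO ONC libraries lie below every naïve library of their genotype for Sqle, Fdft1 and Srebf2, and above them for Npc2 and Ch25h.

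Of the 14 efflux, lysosomal, storage and carrier genes, 4 were called higher after ONC in WT and 9 in KO, and 0 were called lower. Their median log2 fold change was 0.68 in WT and 1.16 in KO. The WT count rested on single libraries, with 1 gene of the 33 called higher (Ch25h) without WT ONC replicate 1, where 3.09% of all genes were, and 7 without WT ONC replicate 2, which added Lipa, Nceh1 and Plin2, where 2225 of all 17102 genes were. Ch25h (chromosome 19, 34473778 to 34475164), the enzyme that hydroxylates cholesterol to an oxysterol, rose furthest in both. It measured 157, 136, 62.5 and 64.1 in WT naïve and 1378, 529 and 1440 in WT ONC, a rise of 3.39 ± 0.53 or 10.5-fold (limma, adjusted p = 0.000141). In KO it went from 199, 51.5, 371 and 153 to 696, 1553, 1223 and 956, a rise of 2.76 ± 0.49 or 6.78-fold (limma, adjusted p = 0.000421). Naïve and ONC libraries did not overlap, and WT ONC replicate 2 was the lowest of the 3.

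Among the efflux genes, Abcg1, a transporter that passes sterol to lipoproteins, rose in both genotypes. It read 1743, 2213, 2095 and 2175 in WT naïve and 7098, 2948 and 4816 in WT ONC, a rise of 1.18 ± 0.28 (limma, adjusted p = 0.00516). In KO naïve libraries lay at 1267 to 2885 and ONC libraries at 4330 to 5234, a rise of 1.20 ± 0.26 (limma, adjusted p = 0.00184), and neither genotype showed an overlap. Without WT ONC replicate 1 the WT rise was 0.88 and no longer called (limma, adjusted p = 0.0614). Abca1, which loads cholesterol onto lipid-poor apolipoproteins, was called in KO, from 1485, 1637, 3047 and 1764 to 6626, 5993, 6650 and 6065, a rise of 1.73 ± 0.26 (limma, adjusted p = 9.85e-05). In WT it read 3768, 3416, 4861 and 5721 when naïve and 6042, 3756 and 7629 after ONC, a change of 0.36 ± 0.28 that was not called (limma, adjusted p = 0.395). Neither receptor was called, with Nr1h2 at 0.02 ± 0.14 in WT and 0.27 ± 0.13 in KO, and Nr1h3, at 10.7 to 132 normalized counts in these 4 groups, at 0.90 ± 0.97 and 0.14 ± 0.90.

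In the lysosomal group Npc2 (chromosome 12, 84754562 to 84773152) rose in both genotypes. It read 12166, 10518, 11272 and 11770 in WT naïve and 27952, 18469 and 23302 in WT ONC, a rise of 1.01 ± 0.26 (limma, adjusted p = 0.0112). In KO it read 5010, 4540, 11229 and 5364 when naïve and 24135, 32640, 27847 and 21565 after ONC, a rise of 2.11 ± 0.24 (limma, adjusted p = 6.91e-06). All ONC libraries were above all naïve libraries. The WT call was lost without WT ONC replicate 1 (0.86, limma, adjusted p = 0.0747) and at 0.57 under quantile normalization. Lipa, the lysosomal ester hydrolase, was called in KO (1.06 ± 0.29, limma, adjusted p = 0.0111), where KO naïve replicate 3 at 5709 lay inside the ONC range of 5093 to 6507. Its change in WT was 0.62 ± 0.31 (limma, adjusted p = 0.172), and Npc1, the membrane partner of Npc2, was called in neither (0.28 ± 0.25 and 0.45 ± 0.23).

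Of the 5 esterification, oxidation and droplet genes, 2 were called higher in WT and 4 in KO. Soat1, which esterifies cholesterol for storage, read 3142, 2566, 2862 and 3038 in WT naïve and 11970, 4047 and 9039 in WT ONC, a rise of 1.39 ± 0.38 (limma, adjusted p = 0.0144). WT ONC replicate 2 was close to the naïve libraries, and the call was lost without WT ONC replicate 1 (1.06) or 3 (1.27). In KO it read 1466, 1718, 4592 and 1452 and then 6175, 5301, 5351 and 4089, a rise of 1.35 ± 0.35 (limma, adjusted p = 0.00762) with KO naïve replicate 3 inside the ONC range. Plin2, the perilipin that coats droplets, was called in KO, from 1024, 659, 1678 and 702 to 2756, 2588, 2607 and 1986, a rise of 1.38 ± 0.27 (limma, adjusted p = 0.000955). In WT its change was 0.45 ± 0.29, with ONC replicate 2 at 1444 inside the naïve range of 1430 to 1963 and the others at 3201 and 2779. Plin3, a perilipin of nascent droplets, rose by 1.12 ± 0.26 in KO (limma, adjusted p = 0.00335), and its change in WT was 0.65 ± 0.28. Nceh1, a neutral ester hydrolase, did not pass in either (0.78 ± 0.28 in WT, 0.63 ± 0.26 in KO).

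Of the carriers, Apoc1, a small apolipoprotein, was called in KO, from 67.8, 56.3, 53.3 and 47.6 to 279, 137, 178 and 212, a rise of 1.79 ± 0.48 with no overlap (limma, adjusted p = 0.00929). In WT ONC it read 34.9, 227 and 113, on both sides of the naïve range of 97.1 to 174, and its change was -0.42 ± 0.52. Fabp5, a fatty acid binding protein with processed copies in the genome that counting could share reads with, was called in neither (0.70 ± 0.41 in WT, 1.00 ± 0.38 in KO).

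Sorted bulk RNA cannot tell fewer cells of a type from less RNA per cell, and the shares of rod and microglial transcripts differed between the groups compared. In WT ONC replicate 2, rod transcripts were at 1.92%, above the WT naïve range, and its mean log2 value over the 15 synthesis enzymes was 9.56, beside 9.48 and 9.62 in the other WT ONC libraries and 10.35 to 10.68 in WT naïve. Within KO naïve, replicate 3 held 1.19% rod transcripts and the others 3.15 to 3.74%, and their synthesis means were 10.58 and 10.48 to 10.53. Over the 14 efflux, lysosomal, storage and carrier genes, WT ONC replicate 2 lay at 10.54 and the others at 11.02 and 11.04, and KO naïve replicate 3 lay at 9.98 and the others at 9.55 to 9.75. Among KO IOP libraries the lowest such mean, 9.90 in replicate 1, went with 3.43% microglial transcripts, and the highest, 10.52 in replicate 2, with 2.95%. Nr1h3, a low gene among these 14, was listed at 0 in replicate 1 and read 29.1 in replicate 2, which widened this gap. With KO naïve replicate 3 alone as the KO naïve group, a choice made after its values were seen, Fdft1 (-1.18), Fdps (-1.27) and Abcg1 (1.90) were called after ONC. The KO rises were then 0.04 for Lipa, 0.17 for Soat1, 0.33 for Plin3, 0.55 for Plin2, 1.05 for Abca1, 1.22 for Npc2, 1.51 for Ch25h and 1.85 for Apoc1. Changes of the other genes called lower in KO were then -1.29 (Hmgcs1), -1.14 (Idi1), -1.39 (Sqle) and -0.81 (Cyp51). Msmo1 lay at -0.83, Hsd17b7 at -1.57, Sc5d at -0.73 and Srebf2 at -1.02. Calls were lost among these falls as well as among the rises. Of the 15 synthesis enzymes, 13 lay below 0, with a median of -0.81. The part of cell makeup in the falls and in the rises was not tested.

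**Figure D4:**
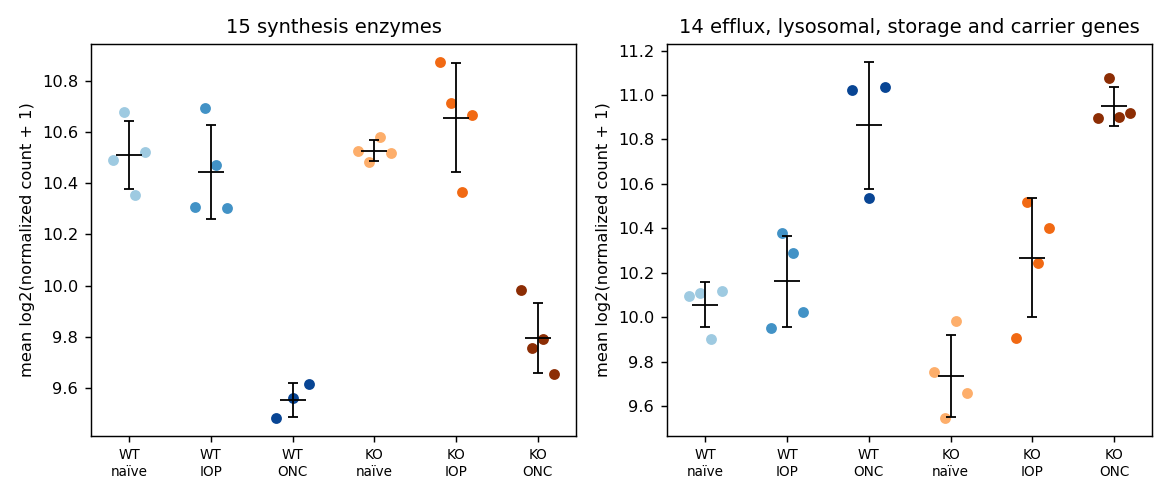
Mean log2(normalized count + 1) per library over the 15 synthesis enzymes (left) and over the 14 efflux, lysosomal, storage and carrier genes (right), with points for libraries (replicate 1 leftmost), a bar for the mean and whiskers for the SD. The synthesis mean is 9.55 ± 0.07 in WT ONC and 9.80 ± 0.14 in KO ONC against 10.51 ± 0.13 and 10.53 ± 0.04 in naïve libraries, while the mean of the others is 10.86 ± 0.29 and 10.95 ± 0.09 against 10.06 ± 0.10 and 9.73 ± 0.18.

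Several genes of fatty acid synthesis were also lower after ONC, while other sterol pathway genes were called in both directions (limma). Of 12 fatty acid synthesis genes, which SREBPs also regulate, 6 were called lower in WT after ONC and 7 in KO, and 0 higher in either. Of all genes tested, 10.5% were called lower in WT and 11.0% in KO. Scd1 and Scd2, desaturases, Fasn, the fatty acid synthase, Elovl6, an elongase, Fads2 and Acss2 were called lower in both, with the largest falls for Scd1 (by 3.48 ± 0.93 in WT and 2.78 ± 0.86 in KO) and Elovl6 (by 2.66 ± 0.40 and 1.81 ± 0.37), and Me1 was lower in KO (by 1.54 ± 0.43). Of 20 other sterol pathway genes, 19 were tested, with 2 called higher and 4 lower in WT and 5 higher and 3 lower in KO. The shares of all genes called higher were 7.55% in WT and 12.7% in KO. Acat2, which makes acetoacetyl-CoA at the entry of the pathway, fell by 1.29 ± 0.22 in WT and by 0.96 ± 0.20 in KO, and Abcg4 by 1.60 ± 0.39 and 1.42 ± 0.36. Stard4 and Osbpl5, sterol transfer proteins, were lower in WT (by 1.86 ± 0.44 and 1.77 ± 0.48), and Vldlr, a lipoprotein receptor, was lower in KO (by 1.53 ± 0.42). Called higher were Stard3 in both (0.78 ± 0.27 and 1.06 ± 0.25), Osbpl11 in WT (2.03 ± 0.62) and, in KO, Mylip (0.98 ± 0.28), Lpcat3 (0.87 ± 0.24), Lrp1 (0.83 ± 0.25) and Ebp (0.72 ± 0.22), the last of these a synthesis enzyme.

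IOP elevation was followed by few calls among the cholesterol genes. In WT, 0 of the 33 were called by limma, where 1.56% of all genes were called, and 5 had an unadjusted p under 0.05. edgeR on recovered reads called Fabp5, and DESeq2 called Fabp5, Pmvk and Ch25h, all higher. Fabp5 read 1632, 726, 393 and 1860 in WT IOP against 289 to 478 in WT naïve (1.37 ± 0.38, limma, adjusted p = 0.0751), and Pmvk 1617, 794, 649 and 1903 against 538 to 786 (0.82 ± 0.28, limma, adjusted p = 0.171). Without WT IOP replicate 3 both were called higher, where 0.971% of all genes were. For both genes WT IOP replicates 1 and 4 were the high libraries, the same that held 0.873 and 0.948% lens transcripts, and the part of lens RNA was not tested. Ch25h read 217, 332, 347 and 264, above all WT naïve libraries (1.56 ± 0.49, limma, adjusted p = 0.125). The 15 synthesis enzymes had log2 fold changes from -0.45 to 0.82 with a median of -0.13.

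In KO, 4 of the 33 were called higher after IOP elevation and 0 lower, where 5.06% of all genes were called higher. Npc2 went from 5010, 4540, 11229 and 5364 to 14384, 14546, 15398 and 14798 with no overlap, a rise of 1.28 ± 0.24 (limma, adjusted p = 0.0084). Soat1 read 5176, 3926, 5300 and 5192 against 1466, 1718, 4592 and 1452, a rise of 1.26 ± 0.35 (limma, adjusted p = 0.0345). Abca1 read 2823, 4355, 4558 and 3124 against 1485, 1637, 3047 and 1764, a rise of 0.94 ± 0.26 (limma, adjusted p = 0.0359). Ch25h read 418, 712, 250.5 and 640 against 199, 51.5, 371 and 153, a rise of 1.58 ± 0.49 that stood at the threshold (limma, adjusted p = 0.0499). In the last 3 genes KO naïve replicate 3 overlapped the IOP libraries.

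These 4 calls rested on which KO naïve libraries were used. Npc2 kept its call with each of the 8 libraries left out, while Abca1 lost it in 6 of the 8, and Soat1 and Ch25h in 7 of the 8. Without KO naïve replicate 3 the changes were 1.57 for Npc2, 1.66 for Soat1, 1.16 for Abca1 and 2.00 for Ch25h, and 7 genes were called higher and 1 lower, where 10.8% of all genes were called higher and 7.83% lower. With replicate 3 as the sole KO naïve library they were 0.40, 0.08, 0.26 and 0.33, and limma called 0 genes, with 1 at an unadjusted p under 0.05. With the 2 groups fitted alone 0 genes were called as well. Without KO naïve replicate 1, 2 or 4 in turn, or KO IOP replicate 3, Npc2 was the 1 gene called. Microglial transcripts made up 2.87 to 3.63% of KO IOP libraries, beside 3.48% in KO naïve replicate 3 and 1.18 to 1.54% in the others, and their part in these rises was not tested. Nr1h3 was listed at 0 in KO IOP replicate 1 and measured 29.1, 4.12 and 27.3 in the others, against 10.7 to 124 in KO naïve, and it was not called (limma, adjusted p = 0.055). Cx3cr1, the gene that carries GFP in these mice, read 952 to 1233 in KO IOP and 9417 or more in every other library, so these 4 libraries also stand apart by that measure.

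**Figure D5:**
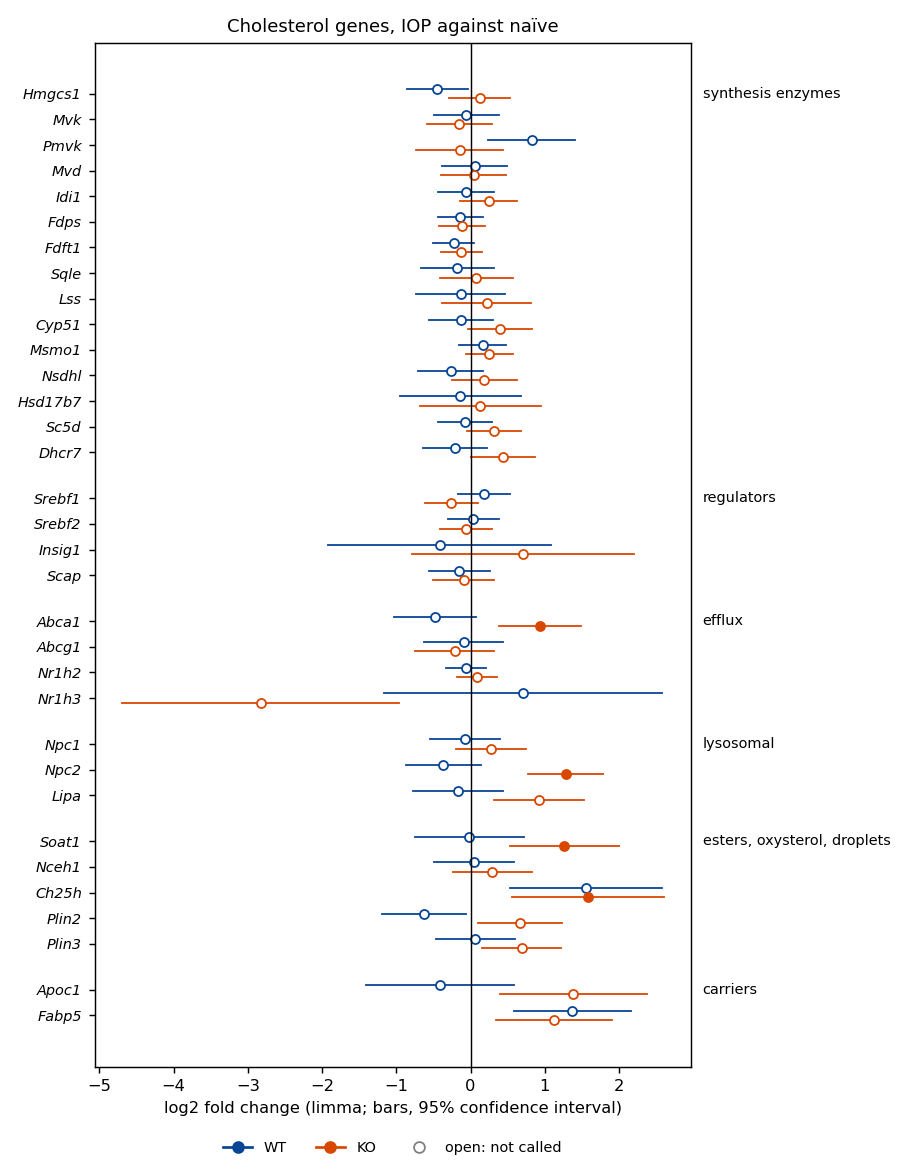
Log2 fold change of IOP elevation against naïve (x axis) for the 33 genes by role, in WT (blue) and KO (orange), with bars for the 95% confidence interval of limma and filled points for called genes. Abca1, Npc2, Soat1 and Ch25h are called in KO (0.94 to 1.58) and no gene is called in WT.

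Directly between genotypes, Abca1 was the 1 gene called in naïve retinas, where 0.339% of all genes were called lower in KO. It read 3768, 3416, 4861 and 5721 in WT and 1485, 1637, 3047 and 1764 in KO, a fall by 1.19 ± 0.26 (limma, adjusted p = 0.0467). The groups did not overlap, with KO replicate 3 the nearest to WT. The call was lost in 7 of 8 fits that left out a library, each except that without KO naïve replicate 3 (-1.42), where 1 of the 33 genes was called higher and 4 lower beside 2.22% and 7.27% of all genes. With replicate 3 as the sole KO naïve library the difference was -0.51. The 15 synthesis enzymes had a median difference of 0.01 between naïve KO and WT, and their values lay between -0.33 (Hmgcs1) and 0.30 (Fdps).

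Between KO and WT after IOP elevation 0 of the 33 genes were called, where 2.11% of all genes were, and 11 had an unadjusted p under 0.05. edgeR and DESeq2 called 0. These groups were also apart in Cx3cr1, at 952 to 1233 in KO IOP and 26836 to 54612 in WT IOP. After ONC, 0 were called by limma, where 0.0877% of all genes were, 7 had an unadjusted p under 0.05, edgeR called 0 and DESeq2 called Lss, higher in KO (limma, 1.19 ± 0.31, adjusted p = 0.19). The 95% interval of the KO to WT difference after ONC ran from -0.29 to 0.59 for Hmgcs1, from 0.05 to 0.64 for Fdft1, from -0.35 to 0.74 for Npc2 and from -1.04 to 1.16 for Ch25h. Leaving out WT IOP replicate 2 or WT ONC replicate 2 gave 1 call, higher in KO, in the respective comparison, where 1.17% and 3.63% of all genes were called higher.

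The change after IOP elevation differed between genotypes in Npc2, Abca1 and Plin2 by the interaction term, with 3 of the 33 genes called higher where 4.85% of all genes were. The KO IOP libraries in this term also stood apart in Cx3cr1 (952 to 1233), and its part was not tested. For Npc2, WT libraries read 6221, 12373, 11074 and 7227 after IOP elevation and 10518 to 12166 before, while KO libraries rose, so that the KO change exceeded the WT change by 1.65 ± 0.34 (limma, adjusted p = 0.00897). For Abca1, WT libraries read 2487, 4225, 4146 and 2180 after IOP elevation against 3416 to 5721 when naïve, and the difference of the changes was 1.41 ± 0.37 (limma, adjusted p = 0.0237). For Plin2, WT libraries read 886, 1528, 1320 and 853 against 1636, 1903, 1430 and 1963, KO libraries read 1391, 1767, 1522 and 1356 against 1024, 659, 1678 and 702, and the difference was 1.30 ± 0.38 (limma, adjusted p = 0.039). In all 3 genes the low WT IOP libraries were replicates 1 and 4, which held 1.81 and 2.00% microglial transcripts beside 2.81 and 3.03% in replicates 2 and 3. Npc2 kept its call in all 16 fits that left out a library. Abca1 lost it in 5, those without WT naïve 4, WT IOP 1 or 4, or KO naïve 2 or 4 (1.24 to 1.38), and Plin2 in 11, including those without WT IOP 1 or 4 (1.19 and 1.17). Without KO naïve replicate 3 the differences were 1.94 for Npc2, 1.64 for Abca1 and 1.57 for Plin2, and 5 genes were called higher and 1 lower, where 10.2% of all genes were called higher and 7.76% lower. With KO naïve replicate 3 as the sole KO naïve library the differences were 0.76, 0.73 and 0.47 for Npc2, Abca1 and Plin2, and limma called 0 genes, with 0 at an unadjusted p under 0.05. For ONC, 0 of the 33 genes were called in the interaction, where 0.0702% of all genes were, 5 had an unadjusted p under 0.05, and edgeR and DESeq2 called 0. Without KO naïve replicate 3, 2 genes were called higher beside 3.09% of all genes, and without WT ONC replicate 2, 1 gene beside 1.12%. The fall in synthesis was not shown to differ between genotypes, with interaction terms of 0.11 ± 0.19 for Fdft1, 0.30 ± 0.35 for Sqle and 0.48 ± 0.29 for Hmgcs1.

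Across all comparisons, 22 of the 33 genes were called in at least 1 of the 9 comparisons. The share of all genes called in at least 1 is not given here. ONC in KO alone called 12.7% of all genes tested higher and 11.0% lower, so this count is not read as particular to the 33. The 11 called in none were Pmvk, Nsdhl, Dhcr7, Srebf1, Insig1, Scap, Nr1h2, Nr1h3, Npc1, Nceh1 and Fabp5.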

How the data were processed

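Total RNA of sorted retinal microglia was sequenced as 23 libraries (SMARTER kit, NovaSeq, paired ends). The authors deposited read counts per gene divided by each library's DESeq2 size factor, a signal without unit. Their methods name salmon and the labels name STAR, both with GRCm38 (versions not given in the sources used here), and counting by strand was not stated. Values were whole multiples of 1 read in 100% of cases (tolerance 0.05 reads), so reads were recovered for all 23 libraries. Symbols were matched for 35436 of 35825 identifiers.

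The filter kept 17102 genes that reached 10 normalized counts in 3 or more libraries, and these were tested as log2(normalized count + 1) with limma 3.58.1 (R 4.3.3), 1 mean per group, empirical Bayes with trend and Benjamini-Hochberg adjustment over all genes tested. Fold changes are on that log2 scale and understate changes of low genes. Genes were called at an adjusted p below 0.05 with a log2 fold change beyond 0.58 in size. Groups came from the labels. Alternatives were pseudocounts of 0.5 and 5, other filters and scalings, compared groups alone, edgeR 4.0.16 and DESeq2 1.42.0 on recovered reads, a replicate block and each library left out. The scripts were tested on simulated data. Genes called in a comparison were given with all library values, or the 6 largest rises and falls where more than 12 were called, and other genes by counts. The genes, lists and tests were chosen with earlier results of these data known. Promoters were RefSeq windows.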

Additional observations from a re-analysis of the deposited data

Results flagged for a closer look

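In 175 groups of 4 libraries (each gene and each mean over genes), 9 held a highest or lowest library whose gap to the next exceeded Dixon's 95% critical value, and chance flags about 1 in 20 groups. In KO naïve replicate 3, Npc2 stood at 11229 normalized counts beside 4540 to 5364 in the others, within the WT naïve range of 10518 to 12166, and Soat1 at 4592 beside 1452 to 1718. This library held 3.48% microglial and 1.19% rod transcripts, and their part was not tested. Fdft1 stood at 2403 in KO IOP replicate 2 (others 2954 to 3043) and at 1089 in KO ONC replicate 2 (others 1355 to 1397). Soat1 stood at 3926 in KO IOP replicate 2 (others 5176 to 5300), Dhcr7 at 1481 in WT IOP replicate 2 (others 712 to 766) and Plin3 at 959 in WT naïve replicate 2 (others 1187 to 1229). The mean log2 value over the 14 efflux, lysosomal, storage and carrier genes was 9.90 in WT naïve replicate 3 (others 10.10 to 10.12) and 11.08 in KO ONC replicate 2 (others 10.90 to 10.92).

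The change after IOP elevation differed between genotypes by the interaction term of limma in Npc2 (1.65), Abca1 (1.41) and Plin2 (1.30). In each the change was higher in KO, where 4.85% of all genes were called higher in this term. Of 16 fits that left out a library, Npc2 lost its call in 0, Abca1 in 5 and Plin2 in 11. With KO naïve replicate 3 as the sole KO naïve library the terms were 0.76, 0.73 and 0.47. Between KO and WT after IOP elevation, limma called 0 of the 33 genes.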

How the results depend on the processing

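No named gene reversed its direction. Some of the fits counted here could not have shown a change. Reading the main fit by adjusted p alone could not lose a call. Fits with no filter or with the compared groups alone kept the fold change of the main fit, so no direction could reverse there. Calls of named genes were lost in 13 of 288 fits for ONC in WT, 27 of 380 for ONC in KO, 37 of 80 for IOP in KO, 11 of 20 for KO against WT naïve and 21 of 84 for the interaction with IOP. Of the 33 genes, edgeR called 1 and DESeq2 3 for IOP in WT (0 by limma). For IOP in KO (4 by limma), 1 was called with no filter, 7 with quantile normalization, 0 with compared groups alone, 1 by edgeR and 7 by DESeq2. For KO against WT naïve (1 by limma), 0 were called with no filter, 3 with quantile normalization, 0 with compared groups alone, 0 by edgeR and 2 by DESeq2, and DESeq2 called 1 for KO against WT ONC. Without KO naïve replicates 1, 2 and 4, chosen after seeing the data, 3 were called for ONC in KO and 0 for IOP in KO, KO against WT naïve and the interaction with IOP. Leaving out each library in turn gave 12 to 19 calls for ONC in WT, 17 to 20 for ONC in KO, 0 to 2 for IOP in WT, 1 to 8 for IOP in KO, 0 to 5, 0 to 1 and 0 to 1 for KO against WT in naïve, IOP and ONC, 1 to 6 for the interaction with IOP and 0 to 2 for that with ONC. The cause was not tested. A mean left with 1 library is assumed to vary like the other groups.

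The replicate block gave 5 calls for IOP in KO (4 higher, 1 lower; Ch25h lost at an adjusted p of 0.0657 by limma) and the same counts of members elsewhere. Replicate numbers did not pair the libraries, since deviations of 55 same-numbered pairs correlated at -0.253 to 0.230 and 10 exceeded 0.1, and 7 of 23 libraries correlated best with their own number.

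Over all genes, limma, edgeR and DESeq2 called 866, 358 and 952 higher and 481, 201 and 949 lower for IOP in KO, and 12, 9 and 244 higher and 58, 17 and 292 lower for KO against WT naïve. For IOP in KO, compared groups alone gave 3 and 2. For ONC in WT, 1292 were higher and 1801 lower by limma, 1418 and 1223 by edgeR and 1025 and 2138 with upper-quartile rescaling. Depth limited Nr1h3, where 3 reads are worth up to 4.03 normalized counts.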
